A study of Mus musculus with 4 samples.

Results

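Neurotrophins are secreted growth factors first known from neurons, and their receptors are also made by endothelial cells. Brain-derived neurotrophic factor (Bdnf) binds the receptor tyrosine kinase TrkB, encoded by Ntrk2, and neurotrophin 3 (Ntf3) binds mainly TrkC, encoded by Ntrk3. All neurotrophins bind the p75 receptor, encoded by Ngfr, and sortilin, encoded by Sort1, binds their uncleaved precursors together with p75 and carries neurotrophins and other cargo inside the cell. The 6 genes Ntrk2, Ntrk3, Ngfr, Sort1, Bdnf and Ntf3 were taken by symbol from the 17915 coding genes of the deposited table. The family was selected on the Ntrk2 values of these same libraries, which were lower in tdTomato+ cells, so the Ntrk2 difference is a description, with no p-value and with nothing read from its call.

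Endothelial cells sorted from mouse lung were sequenced in bulk as 4 RNA libraries. The tdTomato+ group had 2 libraries and the ZsGreen+ group 2, labelled as biological replicates. Each group had the genotype Cdh5-CreER;aSMA-LSL-Dre;NR1, had 5 doses of tamoxifen and was taken 6 weeks after surgery that narrows the aorta (transverse aortic constriction, TAC). Cdh5-CreER is a tamoxifen-inducible recombinase driven in endothelium, and Dre recombinase sits behind a stop cassette at the alpha smooth muscle actin gene. Under this scheme endothelial cells carry ZsGreen and carry tdTomato once that actin gene has been active, so ZsGreen+ cells here are those without the recorded mark. The age of the mice and whether a library came from 1 mouse or several are not given in the labels, so a p-value speaks only of the spread among these libraries. No group without aortic constriction was analysed here.

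The libraries held 17050673 to 18574737 estimated read counts over coding genes. The labelled cell type was checked with 10 endothelial markers, which summed to 7720 to 8680 TPM in each library and of which edgeR called none different between the groups. TPM is a share of all transcripts and is per transcript length, so it allows levels of different genes to be set side by side. Log2 fold changes are tdTomato+ over ZsGreen+ from edgeR with their standard error (SE), and a gene is called when its Benjamini-Hochberg adjusted p over all 13177 genes tested is under 0.05. Among the 10 endothelial markers 8 values were below 0 and 2 above, from -0.84 to 0.30, so the lack of a call does not show equal purity. In tdTomato+ replicate 1 the macrophage markers given below summed to 9380 TPM, beside 7870 TPM for the endothelial ones. In bulk libraries, fewer cells of a type and less RNA per cell cannot be told apart.

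Ntrk2 makes more than one receptor. Full-length TrkB has an intracellular tyrosine kinase, and the truncated form shares the extracellular and transmembrane parts and ends soon after the membrane, without the kinase. Both coding sequences are shown from GENCODE M21 where they part, because every Ntrk2 value below sums reads over these forms. The 30 bases in lower case, at chr13:58878233-58878262 of GRCm38 on the plus strand, are shared. The 35 bases in capitals are the next coding bases of each transcript, from a different exon in each, 5′ to 3′.
Truncated TrkB (Ntrk2-202): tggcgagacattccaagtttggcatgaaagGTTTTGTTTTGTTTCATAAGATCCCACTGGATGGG
Full-length TrkB (Ntrk2-201): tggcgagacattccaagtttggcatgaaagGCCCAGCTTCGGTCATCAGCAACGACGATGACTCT
The capitals of the truncated form lie at chr13:58932023-58932057 and run to its last codon before the stop, closing a coding sequence of 476 codons. Those of the full-length form lie at chr13:58985802-58985836, and its coding sequence goes on to 821 codons.

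Ntrk2 was the most abundant of the 6 genes in every library. It stood at 7.77 and 7.26 TPM in tdTomato+ replicates 1 and 2 and at 22.2 and 49.81 TPM in ZsGreen+ replicates 1 and 2. Both tdTomato+ libraries lay near each other and below both ZsGreen+ libraries, which themselves differed 2.24-fold. These TPM values rest on estimated read counts of 625.11 and 628 in tdTomato+ cells and 1871 and 4133.36 in ZsGreen+ cells, so counting error is small beside the difference between the ZsGreen+ libraries. The means were 7.51 ± 0.361 TPM (SD, n = 2) in tdTomato+ cells and 36 ± 19.5 TPM (SD, n = 2) in ZsGreen+ cells. The log2 fold change was -2.36 (SE 0.31), a level 5.12-fold lower. Without ZsGreen+ replicate 2, the library with the highest Ntrk2 level, it was -1.82, and without ZsGreen+ replicate 1 it was -2.75. The Ntrk2 gene (NCBI Gene 18212) lies on the plus strand of chromosome 13, from 58806472 to 59133970 (GRCm38).

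**Figure D1:**
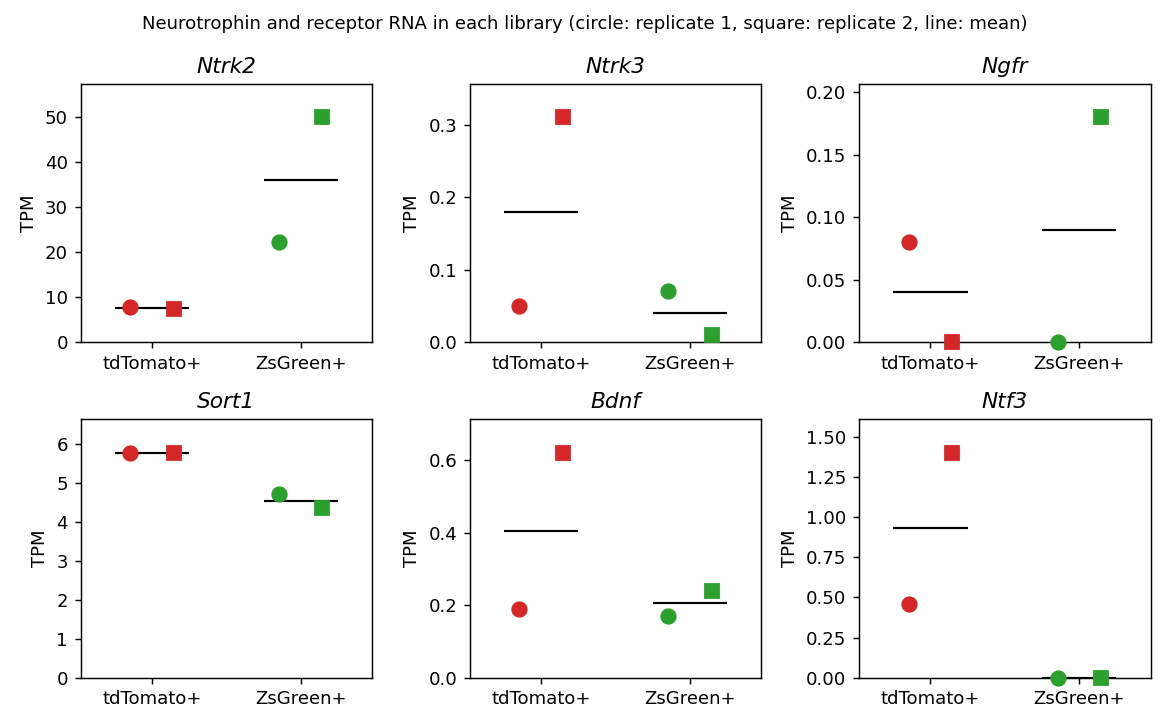
TPM (vertical axes, each from 0 with its own scale) of the 6 genes in the 4 libraries, with circles for replicate 1, squares for replicate 2 and a line for the group mean. Ntrk2 lies at 7.77 and 7.26 TPM in tdTomato+ cells against 22.2 and 49.81 TPM in ZsGreen+ cells, while Sort1 lies between 4.36 and 5.77 TPM throughout and the other 4 genes at or under 1.4 TPM.

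The fall of Ntrk2 moved it from among the more abundant genes to near the middle of the table. In ZsGreen+ replicates 1 and 2, 74.6% and 83.7% of the 17915 genes had a lower TPM than Ntrk2. In tdTomato+ replicates 1 and 2 the share was 54.3% and 54.4%. Of the summed TPM of the 6 genes, Ntrk2 made up 81.8% and 91.2% in ZsGreen+ cells and 54.3% and 47.3% in tdTomato+ cells.

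The mean length of the Ntrk2 transcripts read was nearly the same in all 4 libraries. Where counts are shared among transcript models, the ratio of count to TPM follows the mean length of the models read, and it was not used in picking the family. Divided by each library's median ratio over 9342 well-counted genes, it was 2.7 and 2.64 in tdTomato+ cells and 2.64 and 2.66 in ZsGreen+ cells. The groups thus differed by a factor of 1.01, inside the range of 0.977 to 1.04 that held the middle of those genes (5th to 95th percentile). On a scale set by 599 genes with a single transcript model, chosen after the data were seen, the implied length was 7561 to 7772 bases. GENCODE gives 8744 bases for the full-length transcript printed above and 6846 for the truncated one, so the value falls between them. The table lists 18 transcript models for Ntrk2, and more than one mix of them can give this length, so the share of kinase-bearing TrkB cannot be read from these data.

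Ntrk3, the TrkC receptor, and Ngfr, the p75 receptor, were close to the detection limit in both groups. Ntrk3 had estimated counts of 2 and 14 in tdTomato+ cells and 2 and 1 in ZsGreen+ cells, or 0.05 and 0.31 TPM against 0.07 and 0.01 TPM. The groups overlapped, and the higher group mean came from tdTomato+ replicate 2. Ngfr had counts of 3 and 0 in tdTomato+ cells and 0 and 7 in ZsGreen+ cells, so each group held a library with no read. A count of 0 allows up to 3 counts in a library. Neither gene passed the filter on low counts, and differences in them were not detectable at this depth. The deposited table places Ntrk3 on the plus strand of chromosome 7 and GENCODE places it on the minus strand. Ngfr lies at 95568818 to 95587698 of chromosome 11 in GRCm38.

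Sort1, sortilin, was read in every library at about the level that Ntrk2 had in tdTomato+ cells. Its estimated counts were 425 and 472 in tdTomato+ cells and 371 and 339 in ZsGreen+ cells, and its TPM 5.77 and 5.77 against 4.7 and 4.36. On the TPM scale both tdTomato+ libraries were above both ZsGreen+ libraries. On counts the difference was 0.20 in log2 (SE 0.22), which did not pass (edgeR adjusted p = 0.895). The ratio of Ntrk2 to Sort1 TPM was 4.72 and 11.4 in ZsGreen+ cells and 1.35 and 1.26 in tdTomato+ cells, so in tdTomato+ cells these neighbours in level lay close together.

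The ligands were low in all libraries. Bdnf, the ligand of TrkB, had estimated counts of 8 and 29 in tdTomato+ cells and 8 and 10 in ZsGreen+ cells, or 0.19 and 0.62 TPM against 0.17 and 0.24 TPM. The groups overlapped and tdTomato+ replicate 2 stood above the other libraries. Ntf3, neurotrophin 3, had counts of 6 and 20 in tdTomato+ cells, 0.46 and 1.4 TPM, and no read in either ZsGreen+ library. Summed over each group, and with 3 counts as the floor for the ZsGreen+ group, Ntf3 was 8.48-fold higher in tdTomato+ cells. The tdTomato+ counts are taken as exact in this ratio, so it is not a lower limit. Neither ligand passed the filter on low counts. When no filter was applied, the log2 fold change of Bdnf had an edgeR adjusted p of 0.894 and that of Ntf3 an edgeR adjusted p of 0.297, so neither was called. Ntf3 lies at 126101412 to 126166772 of chromosome 6 in GRCm38, on the minus strand.

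Of the 6 genes 2 passed the filter on low counts, Ntrk2 and Sort1, and 1 was called, Ntrk2. Because Ntrk2 picked the family by these same values, its call is no test, in this or any other setting. Over all genes edgeR called 0.304%, with 0.137% lower and 0.167% higher in tdTomato+ cells. By TPM alone the groups did not overlap for 3 of the 6 genes, Ntrk2 lower and Sort1 and Ntf3 higher. Among all 16758 genes with a count, 34.8% did not overlap, 7.64% lower and 27.2% higher, and 3 of 6 is no result about the members. The call of Ntrk2 was not made in 5 of 12 alternative settings: with upper quartile factors, with limma on either TPM scale, and without tdTomato+ replicate 1 or tdTomato+ replicate 2.

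Of the other neurotrophin genes described, from a list written with earlier results known, Nradd was well read and the rest were low. Ntf5, neurotrophin 4/5, another ligand of TrkB, had counts of 6 and 2 in tdTomato+ cells and no read in ZsGreen+ cells. With the same floor, and its tdTomato+ counts again taken as exact, Ntf5 was 2.61-fold higher in tdTomato+ cells, which is not a lower limit. So the ligands Ntf3 and Ntf5 had reads in both tdTomato+ libraries and in neither ZsGreen+ library, with at most 20 counts in any of them. More genes of any kind had a count in the tdTomato+ libraries, 15747 and 15560 against 14969 and 15054. Of all genes with a count, 27.2% were higher in tdTomato+ cells without overlap, so this is no result about the ligands. Sorcs2, a sortilin relative named after its values were seen, stood at 23 and 23 counts in tdTomato+ cells and 2 and 7 in ZsGreen+ cells. In log2 this was a difference of 2.22 (SE 0.83, edgeR adjusted p = 0.487). Sorl1, another sortilin relative, had 0.91 (SE 0.59) and Nradd, a p75-like membrane protein, 0.06 (SE 0.25). Nradd was the most abundant of this list at 55.91 to 79.12 TPM. Of the 3 genes of this list that were tested none was called.

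Neurotrophins are made as precursors that furin-like convertases cut inside the cell and plasmin or matrix metalloproteases outside it. A list of convertases, metalloproteases and the plasminogen activators Plat and Plau had 9 genes tested. None of them was called in either direction, and their median log2 fold change was 0.40 beside -0.01 over all genes. Pcsk6, the convertase PACE4, had the largest difference of all 86 pathway genes tested. It stood at 0.65 and 0.54 TPM in tdTomato+ cells and at 3.44 and 11.86 TPM in ZsGreen+ cells, a log2 fold change of -3.77 (SE 0.57, edgeR adjusted p = 0.0769). As with Ntrk2, the tdTomato+ libraries lay close together and ZsGreen+ replicate 2 was the highest. Pcsk6 passed the threshold in 4 of 12 alternative settings: without a filter, with DESeq2, without ZsGreen+ replicate 1 and with the replicate number as a term. Pcsk5, another convertase, differed the other way, at 33.92 and 40.13 TPM in tdTomato+ cells against 17.19 and 22.02 TPM. The difference was 0.79 in log2 (SE 0.18, edgeR adjusted p = 0.201). Furin, at 73.03 to 113.12 TPM the most abundant convertase of the list, had -0.46 (SE 0.19) and Pcsk7 0.40 (SE 0.17), and neither passed.

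Adaptors and kinases that relay Trk signals showed little difference between the groups. Of 34 tested none was called, the median log2 fold change was -0.01, and 15 values were above and 19 below 0. Irs2, an insulin receptor substrate, had the smallest p, at 2.09 and 1.75 TPM in tdTomato+ cells against 0.75 and 0.66 TPM (log2 fold change 1.29, SE 0.38, edgeR adjusted p = 0.327). Hras, a Ras GTPase, was at 95.28 and 129.94 TPM against 140.8 and 175.51 TPM (-0.63, SE 0.22, edgeR adjusted p = 0.435). Frs2, the docking protein at the juxtamembrane site of Trk receptors, had 0.65 (SE 0.33) and the kinase Akt1 had -0.57 (SE 0.30). Akt1 shared the high value of ZsGreen+ replicate 2, at 231.67 TPM against 114.13 in ZsGreen+ replicate 1.

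Partners of p75 gave no call among 16 tested, with a median log2 fold change of -0.05. The widest values were small: from -0.48 for Nfkb1, a subunit of NF-kappaB, to 0.38 for the kinase Ripk2. Nfkb1 turned to 0.28 without ZsGreen+ replicate 2. Bex3, which binds the p75 death domain, had -0.35 (SE 0.21) and Adam17, a protease that sheds p75, 0.26 (SE 0.19).

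Genes that respond to the ERK kinase pathway, into which TrkB and many other receptors feed, gave no call among 18 tested, with a median log2 fold change of 0.13. Egr3, an early transcription factor, stood at 14.73 and 9.86 TPM in tdTomato+ cells against 6.53 and 6.64 TPM (0.72, SE 0.25, edgeR adjusted p = 0.444). Of the 18 values 12 were above and 6 below 0. Feedback inhibitors of the pathway lay on both sides, more of them below 0 than above. Dusp6, a phosphatase of ERK, had -0.73 (SE 0.29, edgeR adjusted p = 0.538), with 280.07 TPM in ZsGreen+ replicate 2 and 124.04 to 148.05 TPM in the other 3 libraries. Spry1 and Spry4, Sprouty inhibitors of receptor signalling, had -0.81 (SE 0.34) and -0.57 (SE 0.27). Also below 0 were the phosphatase Dusp4 at -0.26 (SE 0.46) and the Sprouty relative Spred1 at -0.14 (SE 0.52), named after their values were seen. Above 0 lay the phosphatase Dusp5 at 0.39 (SE 0.37), Spry2 at 0.28 (SE 0.38) and the Sprouty relative Spred2 at 0.17 (SE 0.24), all 3 named after their values were seen. Dusp6 was called without ZsGreen+ replicate 1, at -1.07 (edgeR adjusted p = 0.0441).

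The GDNF family, neurotrophic factors of a separate receptor system built on Ret, gave no call among 6 tested, with a median log2 fold change of 0.08. Ret had 41 and 36 counts in tdTomato+ cells and 22 and 10 in ZsGreen+ cells (log2 fold change 1.10, SE 0.68). Gdf15, a distant relative, was at 40.05 to 48.23 TPM in all libraries. Over all 6 pathway lists, none of 86 genes tested passed edgeR's adjusted threshold. DESeq2 called 2 of the 86, Pcsk5 and Pcsk6, beside 330 of all 13177 genes. In edgeR 8 of the 86 had an unadjusted p under 0.05. The 8 are 9.3% of those tested, and the share over all genes was 8.77%. This count moved when 1 library was left out. It was 22 (25.6%, beside 13.4% of all genes) without ZsGreen+ replicate 1, 3 (3.49% beside 4.85%) without tdTomato+ replicate 1 and 5 (5.81% beside 5.24%) without tdTomato+ replicate 2. With the replicate number as a term edgeR called 7 of the 86, beside 934 of all 13177 genes, so this is no result about the lists. The 7 were Pcsk5, Irs2 and Egr2, an early transcription factor, higher in tdTomato+ cells, and Pcsk6, Spry1, Hras and Dusp6 lower. Their edgeR adjusted p ran from 5.82e-20 for Pcsk6 to 0.0457 for Egr2. With this added term, 4 libraries leave little to measure the spread of a single gene. These p-values therefore rest mostly on the spread shared across genes, and whether the numbers pair the libraries is not known.

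**Figure D2:**
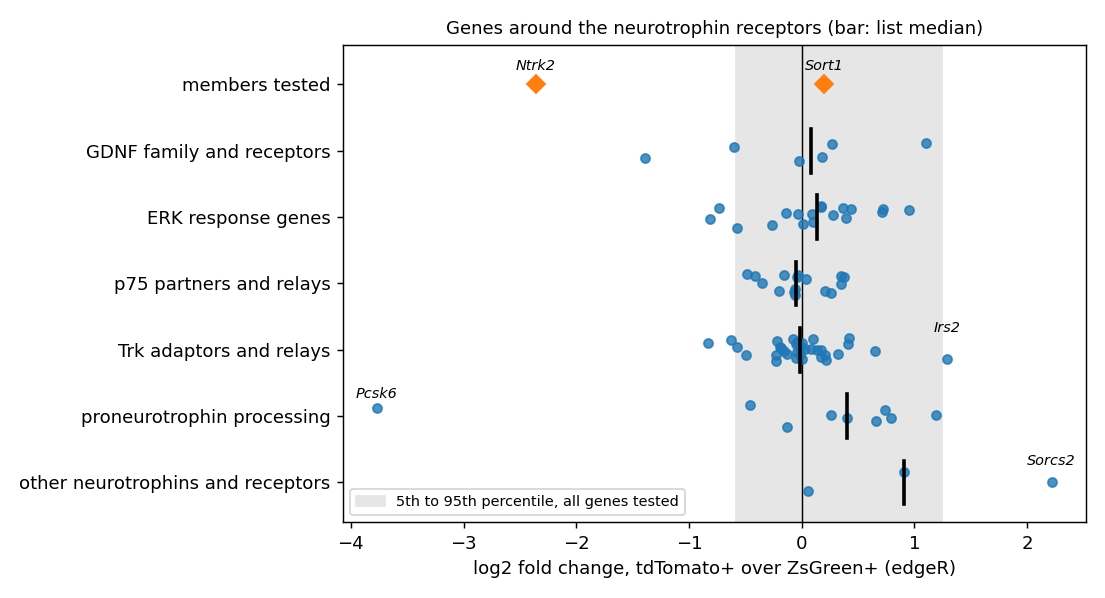
Log2 fold change of every tested gene (points) in each pathway list, with the list median as a bar, the tested members as diamonds and the 5th to 95th percentile of all genes, -0.58 to 1.25, in grey. Ntrk2, which picked the family by these same values, lies to the left of it at -2.36. Pcsk6, which was not called, lies to the left at -3.77, and Sort1 at 0.20 lies inside.

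The genes whose profile over the 4 libraries was closest to that of Ntrk2 were Lrrn4cl, Pard6g, Pde8b, Slc16a12 and Slc38a4. Likeness was the Euclidean distance between log2 CPM values centred on each gene's mean, over 11997 genes. The distances were 0.41 for Lrrn4cl, 0.46 for Pard6g, a cell polarity protein, and 0.47 for Pde8b, a cyclic AMP phosphodiesterase. They were 0.48 for the transporter Slc16a12 and 0.51 for the amino acid transporter Slc38a4, and the median over all genes was 2.39. Lrrn4cl stood at 1.01 and 1.25 TPM in tdTomato+ cells against 3.21 and 9.37 TPM. Pard6g stood at 6.57 and 5.66 TPM against 20.35 and 29.79 TPM. Each of the 5 genes had its highest TPM in ZsGreen+ replicate 2 and the next in ZsGreen+ replicate 1. Of the 5 only Pard6g was called. A profile over 4 libraries from 2 groups holds little beyond the group difference and the order within groups, so this is a description.

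**Figure D3:**
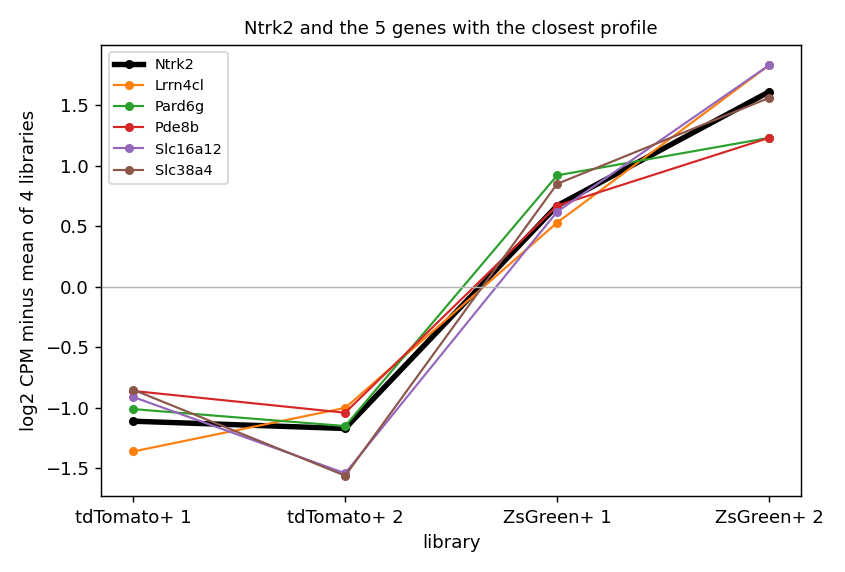
Log2 CPM minus the mean of the 4 libraries (vertical axis) for Ntrk2 (thick black line) and the 5 genes nearest to it, by library; lines only join the values of a gene. Ntrk2 lies at -1.11 and -1.17 in tdTomato+ libraries and at 0.67 and 1.61 in ZsGreen+ libraries.

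Most lymphatic and some capillary endothelial markers were lower in tdTomato+ cells, as Ntrk2 was, while venous markers were mostly higher. For 7 of 8 lymphatic endothelial markers, all but Lyve1, both tdTomato+ libraries were below both ZsGreen+ libraries, and edgeR called 4 of the 8 lower. Mmrn1, multimerin 1, had the within-group pattern of Ntrk2 as well, at 5.78 and 4.06 TPM in tdTomato+ cells and 22.07 and 56.34 TPM in ZsGreen+ cells. Prox1, the lymphatic lineage regulator, stood at 0.86 and 0.75 TPM against 1.16 and 3.55 TPM. Not all of these markers shared the rise from ZsGreen+ replicate 1 to 2, which was 2.24-fold for Ntrk2. It was 2.55-fold for Mmrn1, 2.56-fold for Reln and 3.06-fold for Prox1. For Fxyd6 it was 1.53-fold, for Thy1 1.46-fold, for Pdpn 1.07-fold and for Flt4 1.04-fold. The list summed to 422 and 603 TPM in tdTomato+ cells and 439 and 685 TPM in ZsGreen+ cells, most of it Lyve1, and no marker measured was at 0. Without Lyve1 the sums were 83.7 and 66.1 TPM against 218 and 305 TPM. For 6 of 10 markers of aerocytes (aCap), a type of alveolar capillary cell, both tdTomato+ libraries were lower too, and 1, Prx, was called lower. Sirpa of this list went the other way, at 60.02 and 37.91 TPM in tdTomato+ cells against 25.81 and 16.41 TPM, with no call. The summed TPM of the list was 552 and 384 against 789 and 618, highest in ZsGreen+ replicate 1, unlike Ntrk2. Of 8 markers of general capillary (gCap) cells the groups did not overlap for 4, with 3 lower and 1 higher in tdTomato+ cells, and none was called. The counts of markers without overlap stand beside 34.8% of all genes with a count, 7.64% lower and 27.2% higher. The counts of markers called, also in the venous and arterial lists below, stand beside 0.137% of all genes tested called lower and 0.167% called higher. Venous markers summed to 1790 and 1830 TPM in tdTomato+ cells against 818 and 907 TPM, with 3 of 8 called higher. Arterial markers summed to 2960 and 3680 TPM against 1250 and 1330 TPM, with 1 of 8 called higher, Mgp. Without Mgp the sums overlapped, at 701 and 966 TPM against 760 and 869 TPM, and of the 8 values in log2 4 were above and 4 below 0. The part of these cell types in the Ntrk2 difference was not tested.

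Other cells that make neurotrophin genes were checked for the ligands and Ntrk3. Fibroblast markers summed to 119 and 188 TPM in tdTomato+ cells and 39.9 and 48.5 TPM in ZsGreen+ cells. For 7 of 10 both tdTomato+ libraries were higher, as they were for 27.2% of all genes with a count. Pericyte and smooth muscle markers summed to 1570 and 2000 TPM against 1230 and 1020 TPM, nearly all of it Tagln. Without Tagln their sums overlapped, at 19.2 and 31.7 TPM against 16.5 and 26.2 TPM, and 3 of the 10 values in log2 were below 0. Mesothelial markers summed to 23.4 and 36.6 TPM against 16.1 and 13.2 TPM, most of it Krt19. Upk3b, a mesothelial surface protein, stood at 0.15 and 1.58 TPM against 0 and 0.18 TPM. All 3 lists were highest in tdTomato+ replicate 2, as were Ntf3, Bdnf and Ntrk3. The arterial and neuronal lists were highest there too, at 3680 and 266 TPM, so lists of several cell types had this peak. The venous list was nearly level in tdTomato+ cells, at 1790 and 1830 TPM. The part of any of these cells in the reads of Ntf3, Bdnf and Ntrk3 was not tested. No fibroblast, pericyte, smooth muscle or mesothelial marker was called. Macrophage markers summed to 9380 and 4240 TPM against 4210 and 1020 TPM, with no call. All 9 macrophage values in log2 were above 0, with a median of 1.13. Epithelial markers summed to 1080 and 1190 TPM against 501 and 2350 TPM, with no call. Of the epithelial sum in ZsGreen+ replicate 2, 2098.04 TPM was the airway secretory gene Scgb1a1. Without it the sums were 804 and 894 TPM against 421 and 255 TPM, and 8 of the 10 values in log2 were above 0. Of 8 Schwann cell markers the groups did not overlap for 4, with 3 higher and 1 lower in tdTomato+ cells, and none was called. Over all genes with a count the share was 34.8%, so 4 of 8 is no result about these markers. Mbp, myelin basic protein, stood at 2.24 and 1.78 TPM in tdTomato+ cells against 0.55 and 0.26 TPM (log2 fold change 2.11, SE 0.53, edgeR adjusted p = 0.237). Pmp22, a myelin protein also made outside nerve, stood at 145.78 and 115.64 TPM against 195.69 and 193.67 TPM. The Schwann cell regulator Sox10 and the neuronal genes Snap25, Syt1 and Elavl4 were at 0 in all 4 libraries.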

How the data were processed

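Sorted cells of 4 libraries gave RNA that was amplified over the whole transcriptome before sequencing, per the labels' protocols, and no molecular identifiers are named, so intervals and floors cover counting error only. The submitters' processing notes name RSEM 1.3.1, DESeq2 1.4.5 and GRCm38 without roles, the aligner and the strandedness of the libraries are not named by any source used, and reads of overlapping antisense genes cannot be separated. The authors deposited estimated counts (16.2% to 17.9% not whole, rounded here for tests), TPM with a sum of 999999 to 1000001 per library, FPKM, and normalized counts, a signal made from the counts by a factor per library and not used here. Columns and groups were matched by sample title.

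edgeR 4.0.16 (R 4.3.3) compared the groups with its two-sided quasi-likelihood test, TMM factors and a low-count filter (filterByExpr, minimum count 10) that kept 13177 genes. With 2 against 2 libraries an exact two-sided permutation cannot go below p = 0.333, so none is given. On counts simulated for these 13177 genes, edgeR called 30.7% of 2-fold and 90.7% of 4-fold changes in genes of at least 5 CPM. Alternatives were RLE and upper quartile factors, other filters, DESeq2 1.42.0, limma 3.58.1 on log2 of TPM plus 1 or 0.1, each library left out, and the replicate number as a block.

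The members and gene lists were chosen with earlier results of these data known. Named are the members, per pathway list its called genes and, among genes averaging 1 CPM or more, up to 4 of lowest p, and the 5 genes nearest to Ntrk2. Lists hold 106 pathway genes, of which 102 are among the rows analysed here, and markers of endothelial, lymphatic, aCap, gCap, venous, arterial, fibroblast, pericyte and smooth muscle, Schwann, neuronal, mesothelial, macrophage and epithelial cells. Some listed genes are not reported here. Gene spans are printed where the table and RefSeq (GRCm38.p6) give the same span, and transcript sequences are from GENCODE M21.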

Additional observations from a re-analysis of the deposited data

How the results depend on the processing

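The count of called genes, 40 (22 higher), was 128 without a filter on low counts, 330 with DESeq2 and 22 with limma on log2 of TPM plus 0.1, and ran from 4 to 304 when 1 library was left out. On the TPM scales 22 of 31 (plus 1) and 16 of 22 (plus 0.1) calls were higher, and the median log2 fold change of all genes was 0.12 and 0.13 in place of -0.01. The number of members called, 1, was 0 with upper quartile factors and on both TPM scales, where Ntrk2 stood at -2.31, -2.01 and -2.13, and ran from 0 to 1 when 1 library was left out. The Ntrk2 log2 fold change ran from -2.75 to -1.82 over all settings. The number of pathway genes called, 0, was 1 without a filter (Pcsk6) and 2 with DESeq2 (Pcsk5 and Pcsk6), and ran from 0 to 3 when 1 library was left out, the 3 being Dusp6, Nfkb1 and Pcsk6. The cause of these changes was not tested.

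With the replicate number as a block, 934 genes, 1 member and 7 pathway genes were called. Deviations of same-numbered libraries from their group means had a correlation of 0.455 over 13177 genes, and the labels do not say whether a number marks a shared mouse or day, so whether the libraries are paired is not known.

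Ntrk2 apart, among 21 named genes with a test, 229 of 248 values under an alternative kept direction and side of the threshold. Directions turned for 3 genes. When 1 library was left out Nradd ran from -0.23 to 0.41, Nfkb1 from -0.97 to 0.28 (both turned without ZsGreen+ replicate 2) and Gdf15, at -0.02 in the comparison, from -0.07 to 0.03 (turned without tdTomato+ replicate 2 or ZsGreen+ replicate 1). Gdf15 also turned with upper quartile factors (0.02) and on both TPM scales (0.12). The implied Ntrk2 length ratio of 1.01 was the same with a stricter reference set and with FPKM. Depth limits Ntrk3, Ngfr, Bdnf and Ntf3, each at 29 counts or fewer in every library.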

Other observations

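Among the neuronal markers, 2 genes differed more between replicate numbers than between groups. Uchl1, a ubiquitin hydrolase, stood at 2.89 and 25.35 TPM in tdTomato+ replicates 1 and 2 and at 2.06 and 24.12 TPM in ZsGreen+ replicates 1 and 2. Stmn2, stathmin 2, stood at 84.66 and 226.52 TPM against 55.77 and 204.47 TPM. Both genes were higher in the libraries numbered 2 of both groups, while Tubb3, a neuronal tubulin, followed the groups at 16.62 and 14.32 TPM against 7.52 and 6.46 TPM, and 4 of the 8 neuronal markers had no read at all.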
